A study of Mus musculus with 16 samples.

Results

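The comparison described here is the late step of exit from naive pluripotency in mouse embryonic stem cells that had been kept in serum/LIF+2i, from 24 h to 40 h after the exit medium was given. It rests on 4 of the 16 libraries of the series, 2 at 24 h and 2 at 40 h, chosen by their labels and not by any measured value, and it covers all 14288 genes of 27179 in the count table that passed the filter on low counts. Before exit these cells grew on gelatin in knockout DMEM with 10% fetal bovine serum, 2-mercaptoethanol, glutamine, LIF, 3 uM of the GSK3 inhibitor CHIR99021 and 1 uM of the MEK inhibitor PD0325901, after 3 passages of adaptation from serum/LIF. Exit was started by replacing that medium with DMEM and Neurobasal in equal parts with N-2, B-27, 2-mercaptoethanol and 2 mM glutamine, without serum, LIF or either inhibitor. The libraries set beside them are 4 from cells kept in 2i/LIF, a serum-free N-2 and B-27 medium with LIF and the same inhibitors, taken 24 h and 40 h after LIF and inhibitors were left out, and 4 from serum/LIF+2i cells at 0 h and 12 h. The labels name no genotype and no cell line. They give 12 h as a sampling time of these cells, although the treatment protocol lists only the later times for them. The title places the series in work on how pluripotent states take up amino acids.

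Naive embryonic stem cells are held in self-renewal by a network of transcription factors that includes Nanog, Esrrb, Klf4 and Tfcp2l1 and is sustained by LIF and by inhibition of MEK and GSK3. When these supports are taken away the cells pass through a formative state, marked by Otx2, Fgf5, Pou3f1 and the de novo DNA methyltransferases, from which neural and mesendodermal fates can be reached. Stress pathways come into the account below. In the unfolded protein response, misfolded protein in the endoplasmic reticulum activates IRE1, PERK and ATF6, which raise the chaperones and the disposal machinery of that compartment. In the amino acid response, shortage of amino acids leads through eIF2alpha to translation of ATF4, which raises genes of amino acid synthesis, transport and tRNA charging together with regulators such as Chac1, Trib3 and Ddit3.

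The 4 libraries held 9065257 and 9634680 counts at 24 h and 11142744 and 9926274 at 40 h, in a series that ranged from 5931381 to 11142744. A count of 3, used below as the floor of detection, was worth between 0.259 and 0.332 CPM, the count of a gene scaled to library size with TMM factors. The 24 h library of replicate 1 stood apart in ribosomal RNA, with 1.77% of counts against 0.796% in its partner and 0.50% and 0.468% at 40 h. The transcript assigned to Lars2 moved with it, at 6543 CPM in that library against 2610, 1496 and 1391 in the others. All 8 markers of embryonic stem cell identity were measured, and their summed level was 4238 and 4187 CPM at 24 h and 4064 and 4040 CPM at 40 h. The sum hides changes in both directions, as 5 were called lower and 3 higher, with a median log2 fold change of -0.305. Of 10 fibroblast or feeder markers, Postn was at 0 in all 4 libraries, Lum at 0 in 3 of them with 1 count in the other, and the summed level went from 8.30 and 6.73 to 17.0 and 15.7 CPM, with Dcn, Col1a1, Col1a2 and Tagln called higher. The calls for Col1a2 and Tagln were lost without the 40 h library of replicate 2, that for Tagln also without the 24 h library of replicate 2. Of 10 primitive endoderm markers the sum went from 5.20 and 6.01 to 16.8 and 16.4 CPM, with Ttr at 0 in all 4 and Afp in 3 of them, and with Dab2 and Gata4 called higher, the latter not without the 24 h library of replicate 2. Of 10 trophoblast markers the sum went from 15.2 and 16.5 to 10.6 and 11.3 CPM, with Elf5 at 0, Krt7 called higher and Gata3 and Plet1 lower. What part these low levels have in the results was not tested, and in bulk libraries more cells of a type and more RNA per cell cannot be told apart. Nothing in the labels says that the 2 libraries of a group came from separate cultures. The p-values rest on the spread between libraries within groups, estimated over all 16 libraries, and that spread may be technical.

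Between 24 h and 40 h 7220 genes passed the test, 3704 higher and 3516 lower at 40 h, in edgeR's quasi-likelihood test at a Benjamini-Hochberg adjusted p under 0.05. That is 50.5% of the genes tested, 25.9% higher and 24.6% lower. These shares are the background for the counts of list members below. Most of these changes were small, with a median absolute log2 fold change of 0.49 among the genes called, and 1834 genes, or 12.8%, were called with a log2 fold change of at least 1 in either direction (1110 higher and 724 lower). The libraries of the 2 times did not overlap for 10630 genes, 74.4% of those tested, so a lack of overlap alone says little about any gene below. The median log2 fold change of all genes was 0.01.

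**Figure D1:**
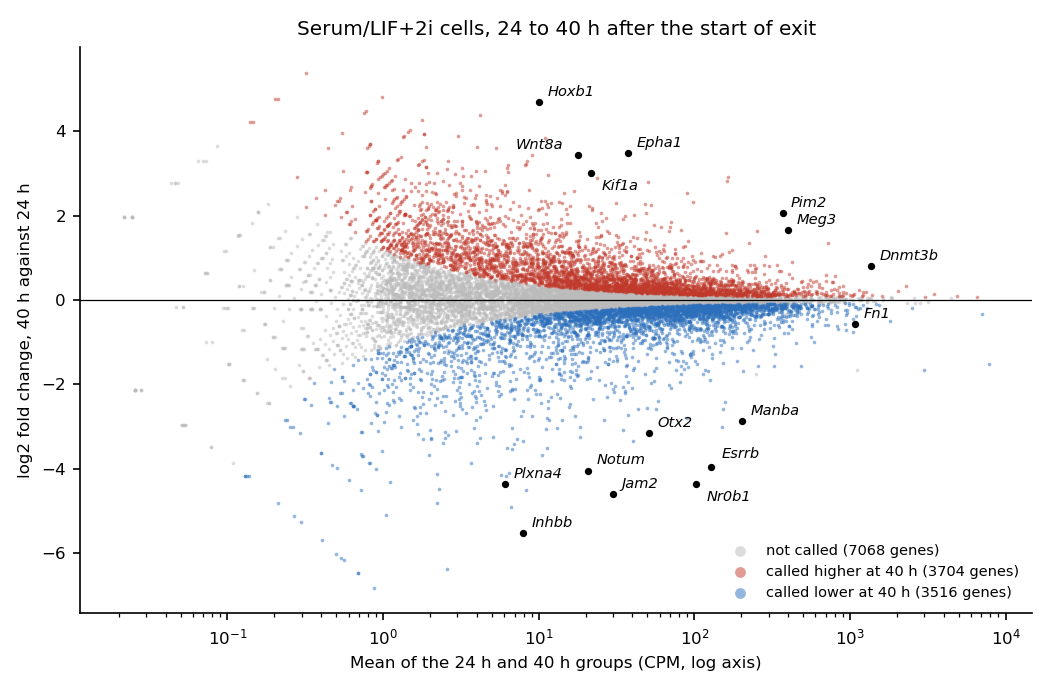
Change of every tested gene in serum/LIF+2i cells between 24 h and 40 h (y axis, log2 fold change) against its mean level (x axis, CPM, log axis); red and blue points are genes called higher (3704) and lower (3516), grey points were not called, and black points are genes described in the text. Hoxb1, Epha1 and Wnt8a stand among the largest rises and Inhbb, Jam2 and Nr0b1 among the largest falls.

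The largest rises among well-measured genes were in genes of patterning and cell signalling. Hoxb1, the anterior Hox gene of the early hindbrain, was at 0.885 and 0.611 CPM at 24 h and at 18.8 and 20.1 CPM at 40 h. Its log2 fold change was 4.68 ± 0.28 (SE derived from the test statistic, n = 2 libraries per time), with an adjusted p of 1.39e-26. Epha1, an ephrin receptor, went from 5.09 and 7.23 to 69.3 and 68.4 CPM (3.47 ± 0.12 on the log2 scale), but its locus overlaps Zyx and the counts cannot be divided between them with certainty. Wnt8a, a secreted Wnt ligand of the early posterior embryo, rose from 2.77 and 3.26 to 29.6 and 36.4 CPM (3.44 ± 0.17). In each of these genes both 40 h libraries were far above both 24 h libraries. Fndc3c1 rose by 3.42, Rfx4, a transcription factor of the neural tube, by 3.30, Samd4 by 3.22, Jakmip2 by 3.20, Tcaf1 by 3.03 and Kif1a, a motor for axonal transport of synaptic vesicle precursors, by 3.00 on the log2 scale. Fam131b (3.82) and St8sia3, a sialyltransferase (3.13), also rose and overlap other annotated genes, Clcn1 and St8sia3os.

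The largest falls included signalling and adhesion genes as well as naive factors. Inhbb, the beta B subunit of activin and inhibin, went from 16.8 and 14.2 CPM to 0.259 and 0.387 CPM, which in counts was 3 and 4 reads at 40 h. Its log2 fold change was -5.53 ± 0.30 with an adjusted p of 5.84e-35. At so few reads that SE, derived from the test statistic, can be too small. Jam2, a junctional adhesion molecule, fell from 58.1 and 57.1 to 2.59 and 2.13 CPM (-4.59 ± 0.12). Notum, an extracellular deacylase that inactivates Wnt ligands and is itself a Wnt target, fell from 41.3 and 37.4 to 2.41 and 2.32 CPM (-4.04 ± 0.14). The falls of Plxna4, a semaphorin receptor (-4.36, overlapping Plxna4os1), Catip (-4.17), Kbtbd11 (-3.54), Adgrd1 (-3.50) and Smyd1 (-3.50) were of like size. Sox21, a SoxB2 factor, fell from 12.9 and 12.6 to 1.29 and 1.06 CPM (-3.41 ± 0.23).

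A few genes crossed the floor of detection. Oprd1, Thbs4, Hoxb4 and Plat had at most 3 counts in each 24 h library, and at 40 h they were at 3.10 and 3.87 CPM (Oprd1), 3.45 and 3.48 CPM (Thbs4), 3.96 and 2.90 CPM (Hoxb4) and 2.24 and 4.55 CPM (Plat). In the other direction Dgkeos, R3hdml, Aox3 and Adgrg6 had at most 3 counts in each 40 h library, after 6.30 and 3.87, 3.76 and 4.99, 5.86 and 2.75, and 3.54 and 3.77 CPM at 24 h. All 8 were called. Hoxb4, Dgkeos, R3hdml and Adgrg6 overlap other annotated genes.

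In absolute terms the step moved a different set. The largest increases in CPM were in Dnmt3b (999.6 and 997.7 to 1771 and 1689 CPM), Grb10 (393 and 425 to 1037 and 1049 CPM), Pkm, Pim2, Meg3 and Rian. Meg3 and Rian are maternally expressed noncoding RNAs of the imprinted Dlk1-Dio3 locus, and Grb10 is an imprinted adaptor of insulin and growth factor receptors. Meg3 rose from 199 and 190 to 614 and 602 CPM (1.65 ± 0.04) and Rian from 188 and 208 to 610 and 589 CPM (1.60 ± 0.04), and both overlap Rtl1. The largest decreases were in Lars2, COX1, Trim28, Trip12 (which overlaps Fbxo36), Dppa5a and Fn1. COX1, encoded in mitochondrial DNA, fell by 0.34 and Trim28, a corepressor of retrotransposons, by 0.49 on the log2 scale. The call for Lars2 (log2 fold change -1.66 ± 0.60, adjusted p = 0.0466) was lost without the 24 h library of replicate 1, at -0.86 (adjusted p = 0.32), and also without either 40 h library, with the replicate block (adjusted p = 0.093), with only the 4 libraries compared (adjusted p = 0.18) and with no filter on low counts (adjusted p = 0.070), and the gene moves with the ribosomal RNA share given above.

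The naive network went down further in this step. Of 14 naive genes, all tested, 12 were called lower and 1 higher, and the median log2 fold change was -1.99. Esrrb, an orphan nuclear receptor at the centre of the network, fell from 242 and 239 CPM to 15.4 and 15.7 CPM (-3.95 ± 0.06, adjusted p = 2.73e-92). Nr0b1 fell from 203 and 188 to 9.82 and 9.0 CPM (-4.37 ± 0.07). Zfp42, the gene of Rex1, fell from 265 and 261 to 44.3 and 43.3 CPM (-2.59 ± 0.05), and Fgf4, the fibroblast growth factor of the epiblast, from 394 and 377 to 138 and 125 CPM (-1.55 ± 0.04). None of these groups overlapped. The exceptions were Dppa3 and Klf2. Dppa3, the gene of Stella, which protects methylation in the early embryo, rose from 3.21 and 2.34 to 6.55 and 7.16 CPM (1.31 ± 0.22). Klf2 stood at 47.4 and 48.9 CPM at 24 h and at 51.1 and 49.0 CPM at 40 h and was not called (0.06 ± 0.07).

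The formative genes did not move as a block. Of 15, 7 were called higher, 7 lower and 1, Zic5, was not called, with a median of -0.14 (-0.09 without the 24 h library of replicate 2). Pim2, a serine/threonine kinase, rose from 139 and 147 to 603 and 592 CPM (2.06 ± 0.04), Dnmt3b by 0.79 ± 0.04, Lef1, a transcriptional partner of beta-catenin, by 0.99 ± 0.06 and Pou3f1 by 1.12 ± 0.08. Otx2, the homeobox factor that opens formative enhancers, fell from 94.6 and 90.8 to 11.3 and 9.29 CPM (-3.16 ± 0.09). Fgf5 was at 7.08 and 5.40 CPM and then at 2.76 and 3.58 CPM (-0.98 ± 0.25), and Dnmt3a fell by 0.22 ± 0.03. Among 12 core pluripotency genes 10 were called lower and 2 higher. Sox2 fell from 297 and 281 to 152 and 137 CPM (-0.999 ± 0.045), while Pou5f1, the gene of Oct4, went from 827 and 849 to 674 and 678 CPM (-0.31 ± 0.03). The 2 that rose were the let-7 antagonists Lin28a (0.60 ± 0.04) and Lin28b (1.09 ± 0.07). Levels of 12 genes over the whole course are plotted next.

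**Figure D2:**
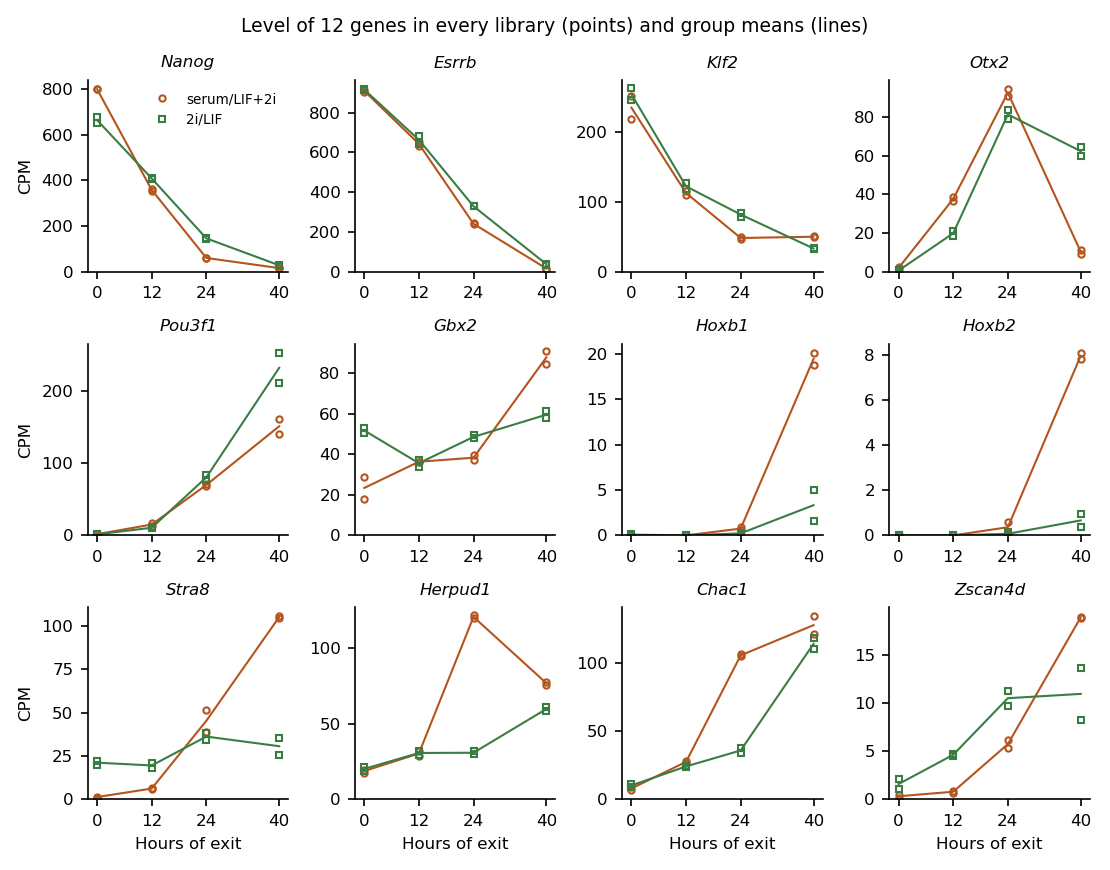
Level of 12 genes (y axis, CPM, each panel from 0) against hours of exit (x axis); circles are serum/LIF+2i libraries, squares 2i/LIF libraries, and lines join group means of 2 libraries. Otx2 in serum/LIF+2i falls to 11.3 and 9.29 CPM at 40 h while Hoxb1 reaches 18.8 and 20.1 CPM, and Klf2 goes from 47.4 and 48.9 to 51.1 and 49.0 CPM.

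Hox genes, which give cells their position along the body axis, were low at 24 h, and those called were all higher at 40 h. Of 26 Hox genes, 9 were called higher, none lower, 3 were not called and 14 did not pass the filter, so the count describes only those that were detected. Summed over all 26, the level went from 13.1 and 16.3 CPM at 24 h to 72.0 and 71.6 CPM at 40 h. Besides Hoxb1, Hoxb2 went from 0.111 and 0.611 to 8.10 and 7.84 CPM (4.37 ± 0.40). The genes called, among them Hoxa3, Hoxa4, Hoxa5, Hoxb1, Hoxb2, Hoxb3, Hoxb4 and Hoxb9, are all from the A and B clusters (Hoxb9 missed the threshold without the 24 h library of replicate 2, with an adjusted p of 0.0503), and of the C and D clusters only Hoxc4 and Hoxc5 passed the filter. Neighbouring Hox genes overlap in the annotation, so reads of Hoxb3 and Hoxb4 in particular may be shared.

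Some genes of the retinoic acid response rose beside them. Of 20, 17 were tested, 7 were called higher and 2 lower, and the median was 0.45, or 0.27 without the 40 h library of replicate 2. Stra8, a retinoid-induced gene needed for meiotic entry, rose from 39.0 and 51.6 to 105 and 106 CPM (1.21 ± 0.08), Meis2, a homeobox cofactor of Hox proteins, from 31.3 and 30.8 to 57.7 and 60.4 CPM (0.93 ± 0.08), and Crabp2, which carries retinoic acid to its nuclear receptors, from 16.6 and 15.3 to 29.8 and 30.3 CPM (0.92 ± 0.11). Crabp1 (-0.50 ± 0.15) and Meis1 (-1.29 ± 0.46) fell, but each call was lost when the 24 h library of replicate 1 or the 40 h library of replicate 1 was left out, and that of Meis1 also without the 40 h library of replicate 2. The retinoid-degrading enzymes Cyp26a1, Cyp26b1 and Cyp26c1 did not pass the filter, with at most 0.774 CPM in any of the 4 libraries.

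Of 29 neural genes 18 were tested, 11 were called higher and 1, Sox21, lower. Sox11 rose from 63.6 and 63.3 to 136 and 124 CPM (1.04 ± 0.06), Gbx2, which sets the border of midbrain and hindbrain, from 37.1 and 39.4 to 90.7 and 84.6 CPM (1.20 ± 0.08), Sox1 from 18.03 and 20.3 to 49.9 and 44.5 CPM (1.30 ± 0.10), and Tubb3 by 0.82 ± 0.07. Pax6 was not called, at 5.97 and 6.11 CPM at 24 h and 5.60 and 5.90 CPM at 40 h. Other members of the list, such as Neurog2, Six3, En1 and Lhx5, did not pass the filter. Of 18 genes of the primitive streak and mesendoderm only 8 passed it, Wnt8a and Wnt3 were called higher (Wnt3 not without the 40 h library of replicate 1) and Eomes lower, and T was at 0.290 CPM or less in all 4 libraries.

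Each of the signalling lists held calls in both directions. In the Notch list 10 of 16 tested members were called higher and 3 lower, with a median of 0.78. Notch3 went from 49.4 and 53.9 to 103 and 105 CPM (1.00 ± 0.06), Notch2 rose by 0.78 ± 0.06 and the ligand gene Jag2 by 1.35 ± 0.11, while Rbpj, the DNA-binding partner of the Notch intracellular domain, fell from 192 and 184 to 74.0 and 70.2 CPM (-1.38 ± 0.05). Notch4 (-1.61 ± 0.28) and Rfng (-0.58 ± 0.08) also fell, and the target gene Hes5 had no count in 3 of the 4 libraries and 1 count in the other. In the Nodal list 8 of 16 were called higher and 5 lower, but 5 higher without either 24 h library or without the 40 h library of replicate 2. Lefty1, a secreted Nodal antagonist and Nodal target, rose from 27.7 and 29.0 to 76.5 and 75.3 CPM (1.42 ± 0.08), Skil by 0.75 ± 0.04 and Smad3 by 1.12 ± 0.11, while Nodal itself fell by 0.59 ± 0.07 and Smad7 by 1.14 ± 0.11. These Nodal genes are positive and negative parts of the same loop, and they did not share a direction.

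Genes that respond to ERK, the kinase downstream of MEK, were called higher in 6 and lower in 5 of 14 cases. Spred1 rose from 89.0 and 84.3 to 175 and 181 CPM (1.04 ± 0.05) and Dusp6, a phosphatase of ERK, from 89.3 and 90.2 to 158 and 146 CPM (0.76 ± 0.05), whereas Etv5 fell by 0.56 ± 0.04 and Phlda1 by 2.35 ± 0.22. Lifr, the LIF receptor gene, fell from 95.0 and 100 to 19.6 and 17.3 CPM (-2.40 ± 0.08), and Il6st, which encodes its partner gp130, fell by 0.55 ± 0.06. Stat3 fell by 0.59 ± 0.10, and Pim1, a STAT3 target, rose by 0.49 ± 0.05. Of 12 members of that LIF list 4 were called in each direction. Over all genes 25.9% were called higher and 24.6% lower, and the counts of the LIF list and of the Wnt and BMP lists that follow are not far from these shares. In the list of Wnt responses 3 of 11 were called higher and 2, Notum and Axin2, lower. The median was 0.59, or 0.20 without the 40 h library of replicate 2. Notum, described above, had the larger fall (-4.04 ± 0.14). Tcf7 rose by 0.59 ± 0.06 and Nkd2 from 1.66 and 1.83 to 8.27 and 8.32 CPM (2.24 ± 0.26), and Axin2, the commonly used readout of the pathway, was at 11.5 and 10.8 and then 9.22 and 8.42 CPM (-0.33 ± 0.14), a call that was lost without any single library of the 4. Of 15 BMP and Id genes 4 were called in each direction, with Id3 lower (-1.71 ± 0.20) and Id2 higher (1.78 ± 0.26), and the lower calls numbered 1 without the 24 h library of replicate 2 and 2 without the 40 h library of replicate 2.

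**Figure D3:**
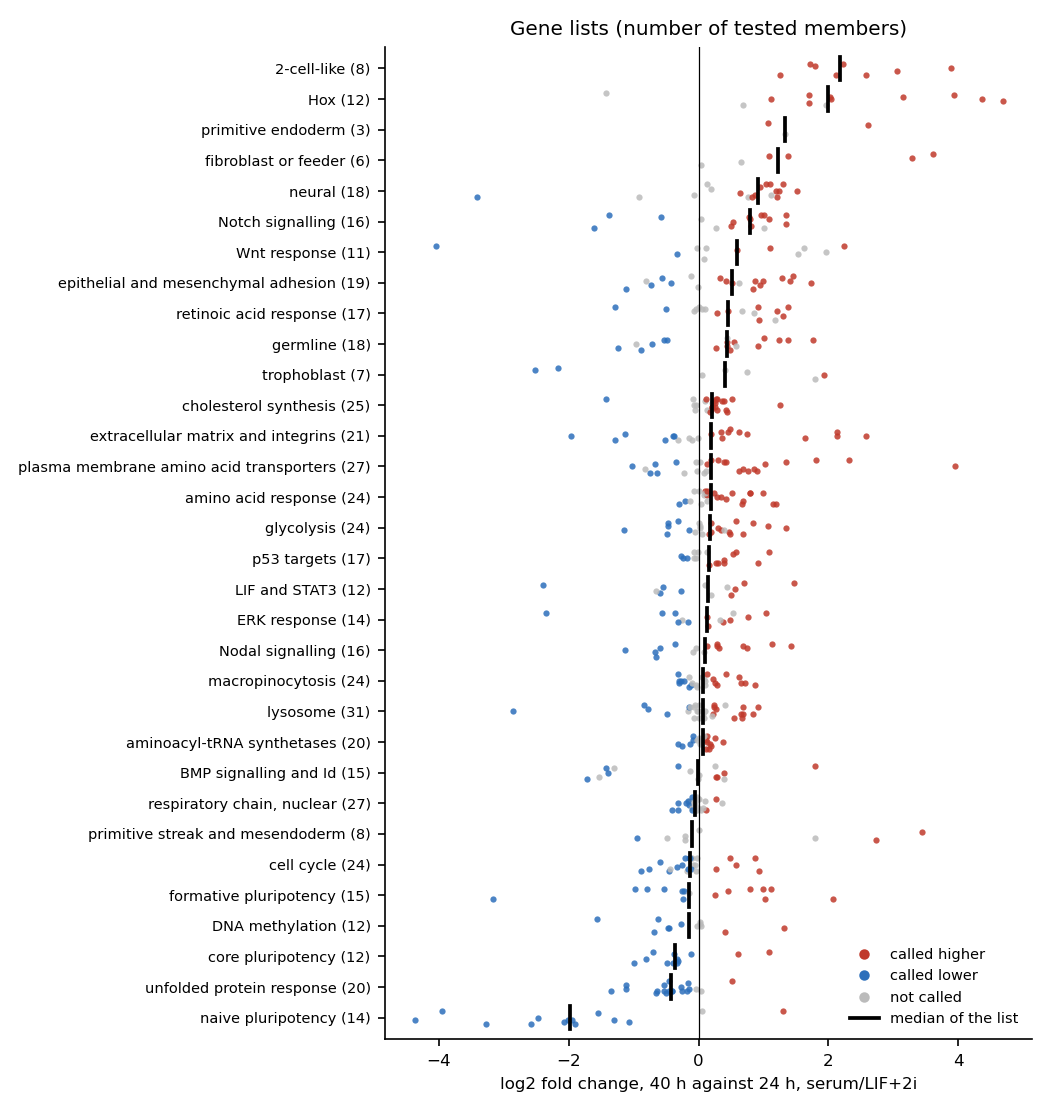
Log2 fold change between 24 h and 40 h in serum/LIF+2i (x axis) of each tested member of the gene lists (rows, number tested in brackets, ordered by median); red and blue points were called higher and lower, grey points were not called, and bars are medians. The naive and unfolded protein response lists have the lowest medians (-1.99 and -0.43), and the Hox and 2-cell-like lists lie to the right but hold only the members that were detected.

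Most genes of the unfolded protein response fell. Of 20 members, all tested, 17 were called lower, 1 higher and 2, Canx and Edem1, were not called, against 24.6% of all genes called lower, and the median was -0.43. Promoter sequences of 5 members are shown because they carry the endoplasmic reticulum stress element, the letters CCAAT, 9 bases of any kind and CCACG, searched on both strands in 300-base RefSeq windows (GRCm38.p6, 250 bases before to 50 after the gene start). Capitals mark the element, and where it begins with CGTGG it lies on the opposite strand.
Hspa5: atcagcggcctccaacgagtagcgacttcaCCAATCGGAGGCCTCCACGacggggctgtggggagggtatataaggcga
Hsp90b1: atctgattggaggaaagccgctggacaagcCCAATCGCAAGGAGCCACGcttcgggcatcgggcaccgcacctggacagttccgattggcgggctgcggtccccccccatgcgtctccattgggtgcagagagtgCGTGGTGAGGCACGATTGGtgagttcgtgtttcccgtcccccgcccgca
Pdia6: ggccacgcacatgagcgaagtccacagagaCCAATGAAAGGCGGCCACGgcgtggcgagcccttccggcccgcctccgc
Creld2: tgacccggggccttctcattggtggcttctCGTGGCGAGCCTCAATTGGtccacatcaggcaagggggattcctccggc
Derl3: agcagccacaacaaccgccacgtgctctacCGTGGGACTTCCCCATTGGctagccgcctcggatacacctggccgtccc
The windows lie at chr2:34771995-34772073 on the plus strand (Hspa5), chr10:86705503-86705686 on the minus strand (Hsp90b1), chr12:17266461-17266539 on the plus strand (Pdia6), chr15:88819490-88819568 on the plus strand (Creld2) and chr10:75893212-75893290 on the plus strand (Derl3), all upstream of the gene start. Of 17 members with a window, 8 held the element, the others being Calr, Canx and Dnajc3, or 47.1%, against 22 of 10940 genes tested that have a window, or 0.201%. Among genes called lower 11 of 2782 windows held it and among genes called higher 1 of 2871, but 7 of those 11 are members of the list itself. A match of letters is a description and not a measured binding site, and this element was searched after the values of the list were known.

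The falls reached chaperones, regulators and disposal factors alike. Hspa5, the gene of BiP, the main chaperone of the endoplasmic reticulum, went from 1179 and 1218 CPM to 859 and 899 CPM (-0.45 ± 0.04, adjusted p = 2.39e-22), and Hsp90b1, the gene of GRP94, fell by 0.17 ± 0.03. Pdia4, a disulfide isomerase, fell from 322 and 338 to 227 and 239 CPM (-0.50 ± 0.04). Xbp1, the transcription factor that IRE1 activates by splicing, fell from 177 and 163 to 84.8 and 72.3 CPM (-1.11 ± 0.05), a gene-level count that does not separate its spliced form. Sdf2l1, a chaperone cofactor, fell from 42.7 and 46.3 to 20.2 and 20.8 CPM (-1.12 ± 0.10). Herpud1, which takes part in degradation of proteins from the endoplasmic reticulum, fell from 120 and 122 to 77.8 and 75.9 CPM (-0.65 ± 0.06). Derl3, another component of that route, fell from 16.5 and 17.9 to 5.86 and 7.74 CPM (-1.35 ± 0.16), and Creld2 fell by 0.64 ± 0.06. The member that rose was Ern1, the gene of the sensor IRE1 itself, from 12.5 and 12.3 to 16.9 and 18.8 CPM (0.52 ± 0.13).

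In 2i/LIF cells the list moved in both directions. There 6676 genes, 46.7% of those tested, were called between 24 h and 40 h, 22.2% of genes higher and 24.5% lower, and of the 20 members 8 were called higher and 9 lower with a median of -0.03. The test of the difference between the 2 steps, which shares no library between them, called 1743 genes or 12.2%. The serum/LIF+2i step was the more positive for 6.57% of genes and the more negative for 5.63%. It called 12 of the 20 members, all more negative in serum/LIF+2i. Herpud1 rose in 2i/LIF from 29.7 and 31.8 to 58.2 and 61.3 CPM while it fell from its higher 24 h level in serum/LIF+2i, a difference of -1.61 ± 0.11 on the log2 scale (adjusted p = 5.91e-26). For Derl3 the difference was -2.01 ± 0.32, for Hspa5 -0.36 ± 0.05 and for Manf, a secreted protein of the stressed endoplasmic reticulum, -0.57 ± 0.07. Before the step in serum/LIF+2i, Herpud1 was at 19.5 and 17.6 CPM at 0 h and 31.6 and 28.8 CPM at 12 h, and Hspa5 at 704 and 647 CPM at 0 h and 661 and 655 CPM at 12 h. For both genes the 24 h libraries were the highest of the 4 times.

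Most genes of the amino acid response list were called higher in both media, with a larger median in 2i/LIF. In serum/LIF+2i 15 of its 24 members were called higher and 2, Cth and Nupr1, lower between 24 h and 40 h (Nupr1 not without the replicate 2 library of either time), with a median of 0.19, and the 2i/LIF step had 20 higher and 2 lower calls with a median of 0.78. The difference of the steps was called for 18 of 24, and 17 of these were more negative in serum/LIF+2i. The element that ATF4 shares with C/EBP factors, written as TGATGNAA and searched on both strands, was present in 7 of 23 members with a window (30.4%) and in 295 of 10940 genes (2.70%). Promoters of 4 members are given as examples, with the match in capitals (beginning with TTG where it lies on the opposite strand). Cth and Nupr1, the members called lower, are not among them.
Chac1: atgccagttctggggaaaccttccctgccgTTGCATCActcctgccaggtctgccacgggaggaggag
Asns: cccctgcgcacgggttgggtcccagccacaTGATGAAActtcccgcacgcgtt
Atf3: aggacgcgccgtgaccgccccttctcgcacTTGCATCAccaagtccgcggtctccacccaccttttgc
Pycr1: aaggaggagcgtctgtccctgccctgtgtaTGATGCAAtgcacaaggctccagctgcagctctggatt
These stretches lie at chr2:119351019-119351086 on the plus strand, chr6:7693210-7693262 on the minus strand, chr1:191183406-191183473 on the minus strand and chr11:120643814-120643881 on the minus strand of GRCm38.p6. Trib3, Vldlr and Nupr1 were the others with a match.

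Chac1, which breaks down glutathione, stood at 106 and 105 CPM at 24 h and at 134 and 121 CPM at 40 h in serum/LIF+2i (0.28 ± 0.06). In 2i/LIF it was at 33.7 and 37.7 CPM at 24 h and reached 110 and 118 CPM at 40 h, and the difference of the steps was -1.40 ± 0.10 (adjusted p = 5.13e-24). The 40 h levels of both media thus lay within 110 and 134 CPM, while the 24 h levels did not overlap. Trib3, a pseudokinase that restrains ATF4, was at 189 and 184 and then 201 and 194 CPM in serum/LIF+2i (0.08 ± 0.04, not called) against 53.6 and 58.4 and then 114 and 121 CPM in 2i/LIF. Ddit3, the gene of CHOP, was at 58.1 and 58.2 and then 55.2 and 56.0 CPM in serum/LIF+2i against 7.36 and 11.5 and then 17.4 and 27.4 CPM in 2i/LIF, a difference of the steps of -1.31 ± 0.19. For Trib3 and Ddit3 the serum/LIF+2i libraries were above those of 2i/LIF at both times. Atf4 rose by 0.10 ± 0.04 in serum/LIF+2i (a call lost without replicate 1 of either time) and by 0.56 in 2i/LIF, a count of mRNA that says nothing of its translation. Asns, the asparagine synthetase gene, was at 550 and 586 and then 563 and 581 CPM and was not called in either medium.

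Other members of that list did rise in serum/LIF+2i. Psat1, of serine synthesis, rose from 656 and 663 to 881 and 896 CPM (0.43 ± 0.03) and Phgdh, the first enzyme of that route, from 67.6 and 82.2 to 125 and 118 CPM (0.69 ± 0.06). Ddit4, an inhibitor of mTORC1, rose from 97.1 and 115 to 253 and 234 CPM (1.19 ± 0.06), and its rise was larger in 2i/LIF, with a difference of -1.24 ± 0.11. Atf5 was the member that went the other way, from 103 and 107 to 238 and 225 CPM (1.15 ± 0.06) against 0.39 in 2i/LIF, a difference of 0.76 ± 0.11. Atf3 rose by 1.00 ± 0.11 and Vldlr by 0.79 ± 0.10, against 2.45 and 2.23 in 2i/LIF.

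**Figure D4:**
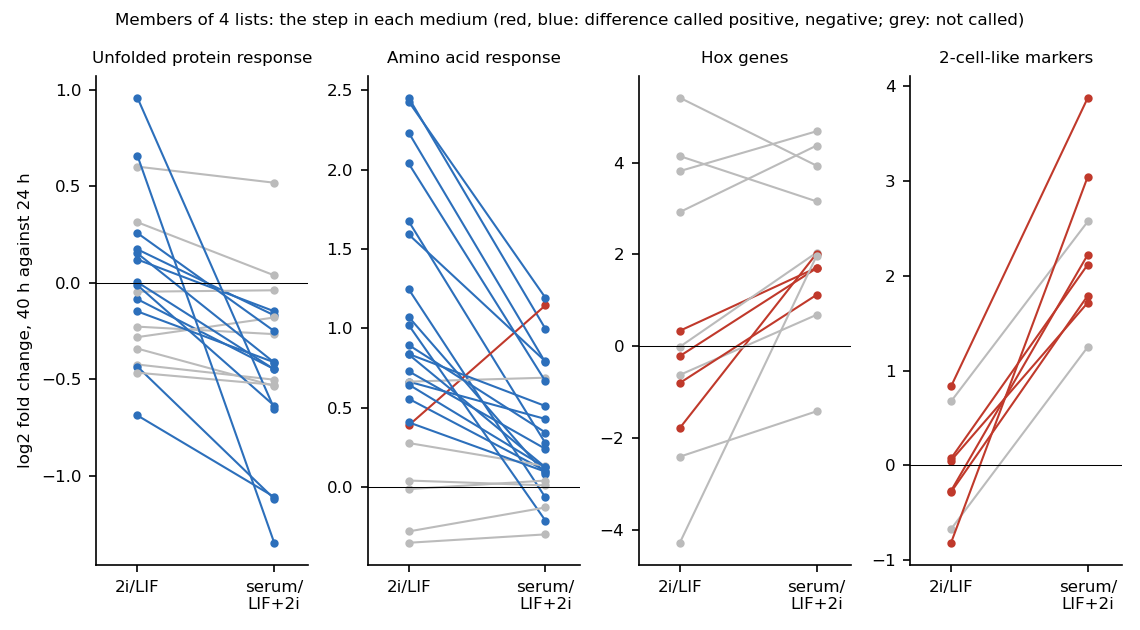
Log2 fold change between 24 h and 40 h (y axis) of each tested member of 4 lists, by medium (x axis, 2i/LIF left, serum/LIF+2i right), with 1 line per gene and a scale of its own in each panel; red and blue lines mark members whose difference between media was called positive and negative, grey lines members where it was not. Lines of the amino acid response mostly slope down toward serum/LIF+2i (17 called) and those of the 2-cell-like markers up (6 called).

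Amino acid transporters of the plasma membrane, the genes closest to the subject of the series, changed individually. Of 31, 27 were tested, 15 were called higher and 5 lower, and the median was 0.19. Slc7a3, a cationic amino acid transporter of pluripotent cells, fell from 614 and 595 to 301 and 291 CPM (-1.03 ± 0.04, adjusted p = 2.05e-50), and Slc7a7, which pairs with Slc3a2 in exchange of cationic and neutral amino acids, from 211 and 216 to 139 and 135 CPM (-0.64 ± 0.05). Slc38a2, a sodium-coupled carrier of small neutral amino acids that responds to starvation, fell from 1078 and 1049 to 851 and 817 CPM (-0.35 ± 0.03). Slc16a10, a transporter of aromatic amino acids, rose from 3.87 and 5.09 to 23.5 and 21.3 CPM (2.31 ± 0.16), and the glutamate and aspartate transporter gene Slc1a3 from 29.8 and 29.2 to 61.3 and 59.0 CPM (1.03 ± 0.08). Slc6a9, which carries glycine, rose by 0.90 ± 0.07 and Slc7a5, the large neutral amino acid transporter LAT1, from 487 and 501 to 684 and 634 CPM (0.42 ± 0.04). Slc7a11, the cystine and glutamate exchanger, was not called (39.2 and 41.4 to 41.3 and 45.8 CPM), whereas it rose by 1.02 in 2i/LIF, and the difference was -0.91 ± 0.16. The difference of the steps was called for 12 of the 27, 9 of them more negative and 3 more positive in serum/LIF+2i. Of 20 cytosolic aminoacyl-tRNA synthetase genes 9 were called higher and 5 lower (3 without the replicate 2 library of either time), none by more than 0.37 in size. The shares over all genes were 25.9% higher and 24.6% lower. A difference of the steps was called for 9, all more negative in serum/LIF+2i, against 5.63% of all genes.

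Genes of macropinocytosis and of the lysosome, which together serve uptake and breakdown of protein from outside the cell, showed no common direction. Of 24 macropinocytosis genes 9 were called higher and 7 lower (25.9% and 24.6% over all genes). Their median was 0.07, or 0.04 without the 24 h library of replicate 2. Snx1 rose from 35.0 and 42.1 to 58.5 and 60.2 CPM (0.62 ± 0.08), Sdc1 by 0.65 ± 0.09, and Snx5 (-0.30 ± 0.04) and Arf6 (-0.32 ± 0.05) fell. Of 31 lysosomal genes tested 11 were called higher and 5 lower, to be set against the same shares. The median of 0.07 moved with every library left out, between 0.0015 without the 40 h library of replicate 1 and 0.15 without that of replicate 2. Ctsl, a cysteine protease, rose from 133 and 138 to 214 and 215 CPM (0.66 ± 0.05) and Ctsb by 0.27 ± 0.06. Manba, the beta-mannosidase gene, fell from 360 and 356 to 52.3 and 45.7 CPM (-2.86 ± 0.05). The lysosomal step in 2i/LIF had a median of -0.26 with 17 members called lower, and the difference was called for 16 of 31, 15 of them more positive in serum/LIF+2i. Ctsb, for example, fell by 0.47 in 2i/LIF, a difference of 0.74 ± 0.09. The E-box CACGTG, the core of the site used by TFEB and by MYC family factors, was present in 9 of 25 lysosomal windows (36.0%) and in 11.8% of all windows.

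Of 25 genes of cholesterol synthesis and uptake 17 were called higher and 1 lower, and without the 24 h library of replicate 2 there were 2 lower. Hmgcs1 went from 646 and 660 to 878 and 873 CPM (0.42 ± 0.03), and Dhcr7 rose by 0.51 ± 0.05. Ebp, a sterol isomerase, fell from 29.6 and 31.1 to 12.2 and 10.3 CPM (-1.43 ± 0.11). The median of the list was 0.21, and the difference from 2i/LIF was called for 7 members, all more positive in serum/LIF+2i.

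In glycolysis 12 of 24 genes were called higher and 6 lower. Slc2a1, the glucose transporter GLUT1, rose from 129 and 126 to 315 and 330 CPM (1.34 ± 0.04, adjusted p = 5.54e-52), Pfkl, the liver form of phosphofructokinase, from 174 and 173 to 320 and 301 CPM (0.84 ± 0.04) and Tpi1 by 0.69 ± 0.04. The platelet form, Pfkp, fell from 278 and 271 to 125 and 124 CPM (-1.14 ± 0.04), and Slc2a3, the glucose transporter GLUT3, from 430 and 432 to 303 and 317 CPM (-0.48 ± 0.04). Isoforms of the same step thus moved in opposite directions. Ldha rose from 645 and 648 to 968 and 964 CPM (0.58 ± 0.04), less than in 2i/LIF, where it rose by 1.38, a difference of -0.80 ± 0.05. Of 27 nuclear respiratory chain genes 8 were called lower and 2 higher (24.6% and 25.9% over all genes), with a median of -0.05. The lower calls numbered 5 without the 40 h library of replicate 2, the higher calls 1 without the replicate 1 library of either time, and the median was -0.09 without the 24 h library of replicate 2 or the 40 h library of replicate 1. Mitochondrially encoded genes gave 1.82% and 1.79% of counts at 24 h and 1.59% and 1.70% at 40 h, a measure that poly(A) selection can affect.

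Markers of the 2-cell-like state, a rare state of embryonic stem cell cultures that expresses genes of the 2-cell embryo, were low and rose. Of 9, 8 were tested and all 8 were called higher, and Duxf3 did not pass the filter. Summed over the 9 they went from 11.9 and 11.3 CPM at 24 h to 45.4 and 44.9 CPM at 40 h. Zscan4d, a telomere-associated factor, rose from 5.31 and 6.11 to 18.8 and 19.0 CPM (1.72 ± 0.16), Zscan4c from 3.43 and 1.94 to 10.3 and 8.03 CPM (1.79 ± 0.24) and Zfp352 from 0.111 and 0.204 to 2.15 and 3.00 CPM (3.88 ± 0.63). None of the 8 was called in the 2i/LIF step, where Zscan4d went from 9.72 and 11.2 to 8.27 and 13.6 CPM, and the difference was called positive for 6. A member at a low level could pass the filter through the 40 h libraries alone, where it was high. The numbers of calls thus describe only the members detected. The Zscan4, Tcstv and Usp17l families have near-identical copies, so the counts of single members are uncertain. A larger share of such cells and more RNA per cell cannot be told apart here.

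Of 19 germline genes 18 were tested, 10 were called higher and 5 lower. Mael, of the piRNA pathway, rose from 16.5 and 16.2 to 38.4 and 39.0 CPM (1.24 ± 0.11) and Taf7l, a germ cell TFIID subunit, from 5.53 and 7.03 to 19.9 and 23.1 CPM (1.76 ± 0.16), while Hormad1, of meiotic chromosomes, fell from 51.5 and 48.1 to 20.6 and 21.5 CPM (-1.24 ± 0.09) and Stk31 by 0.88 ± 0.10. Dazl, an RNA-binding protein of germ cells, fell by 0.72 ± 0.09. The E-box CACGTG was in 10 of 16 windows of this list (62.5%). Of 12 genes that write, copy or read DNA methylation 6 were called lower and 2 higher (1 without the 24 h library of replicate 1). The shares over all genes were 24.6% lower and 25.9% higher. Zfp57, which protects methylation at imprints, fell from 508 and 465 to 163 and 168 CPM (-1.56 ± 0.04), Tet1 from 1065 and 991 to 625 and 649 CPM (-0.69 ± 0.04) and Uhrf1, which guides DNMT1, from 689 and 690 to 443 and 449 CPM (-0.63 ± 0.04), and Tet3 rose from 20.1 and 19.5 to 48.3 and 50.2 CPM (1.31 ± 0.09). The writers Dnmt3b and Dnmt3a are given above.

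Adhesion and matrix genes changed in both directions. Of 19 tested adhesion genes 11 were called higher and 4 lower. Cdh1, E-cadherin, went from 502 and 489 to 636 and 609 CPM (0.33 ± 0.04), Esrp1, an epithelial splicing regulator, rose by 1.00 ± 0.07 and Epcam by 0.51 ± 0.04, and Fn1, fibronectin, fell from 1295 and 1279 to 886 and 848 CPM (-0.57 ± 0.03). Zeb2, a repressor of E-cadherin, rose from 3.43 and 3.57 to 10.0 and 13.5 CPM (1.74 ± 0.21), and Zeb1 fell by 0.74 ± 0.09. Of 21 matrix and integrin genes 11 were called higher and 6 lower. Lamb1 rose from 34.0 and 32.5 to 98.3 and 110 CPM (1.64 ± 0.07) and Cthrc1 by 2.58 ± 0.15, and the basement membrane genes Nid1 (-1.96 ± 0.07), Nid2 (-1.14 ± 0.04) and Sparc (-1.28 ± 0.05) fell.

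Of 24 cell cycle genes 11 were called lower and 5 higher with a median of -0.13. For this list and the p53 and ribosomal protein lists below, the shares over all genes were 24.6% lower and 25.9% higher. Ccnd3 fell from 151 and 150 to 81.8 and 80.7 CPM (-0.89 ± 0.05) and Mcm5, of the replicative helicase, by 0.34 ± 0.04. Cdkn1c, an imprinted inhibitor of cyclin-dependent kinases, rose from 42.1 and 43.6 to 80.1 and 83.5 CPM (0.93 ± 0.08). Members of the MYC family went in opposite directions, with Mycn down from 164 and 156 to 101 and 88.4 CPM (-0.76 ± 0.06), Myc up from 68.4 and 66.1 to 99.3 and 101 CPM (0.57 ± 0.06) and Mycl up by 0.87 ± 0.09. Neither Mycn nor Myc was called in the 2i/LIF step, and their differences were -0.71 ± 0.08 and 0.66 ± 0.10. Of 17 tested targets of p53 9 were called higher and 3 lower (1 without the 40 h library of replicate 2), among them Pmaip1, the gene of NOXA, which rose from 93.6 and 100 to 201 and 210 CPM (1.08 ± 0.05), and Cdkn1a, which rose by 0.53 ± 0.06. Of 86 cytosolic ribosomal protein genes 9 were called higher and 6 lower with a median of 0.05.

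The step was set beside the same step in 2i/LIF, which shares no library with it. Across the 14288 genes the log2 fold changes of the 2 steps had a Pearson correlation of 0.755 and a Spearman correlation of 0.707, a description over genes, which are not independent replicates. Of the 7220 genes called in serum/LIF+2i, 4851 (67.2%) were also called in 2i/LIF, which is 72.7% of the 6676 called there, and 97.1% of the shared calls had the same direction. The direction was opposite for 142 genes, 82 higher and 60 lower in serum/LIF+2i, and only 5 of these had an absolute log2 fold change of at least 1 in both media.

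**Figure D5:**
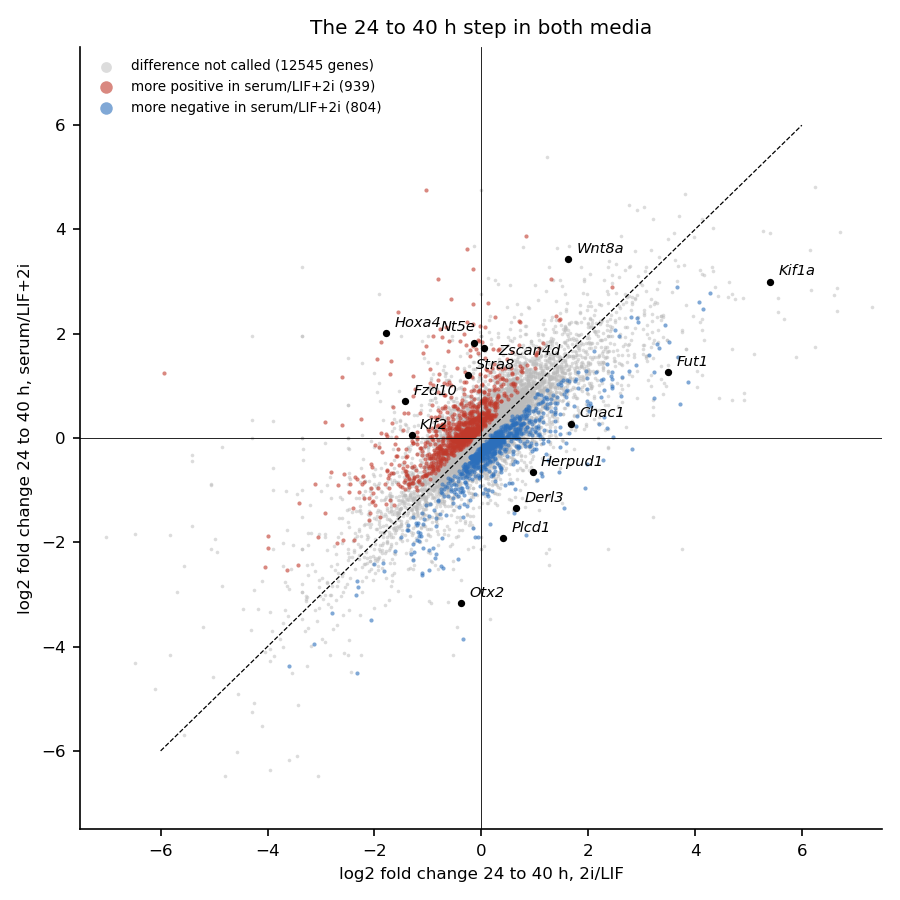
Log2 fold change between 24 h and 40 h in serum/LIF+2i (y axis) against 2i/LIF (x axis) for all tested genes; red (939) and blue (804) points are genes whose serum/LIF+2i step was called the more positive or the more negative, grey points were not called, the dashed line marks equal steps, and black points are named genes. Otx2 lies near no change in 2i/LIF and far below 0 in serum/LIF+2i.

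Among genes called in both the serum/LIF+2i step and the difference, with a mean of at least 10 CPM in at least 1 of the 4 groups, the largest positive differences included those of Fzd10, Nt5e, Cnpy1, Wnt8a and Zscan4d. Nt5e, the ectonucleotidase CD73, rose from 6.75 and 6.73 to 22.8 and 24.7 CPM (1.81 ± 0.14) and in 2i/LIF went from 14.6 and 10.5 to 9.27 and 14.0 CPM, a difference of 1.94. Fzd10, a Wnt receptor, was at 4.42 and 2.96 and then 6.89 and 5.03 CPM and fell by 1.43 in 2i/LIF, a difference of 2.14. Its rise in serum/LIF+2i was not called without the 24 h library of replicate 2 or the 40 h library of replicate 1, nor that of Cnpy1 without the replicate 2 library of either time. The difference for Cnpy1 was 1.85. By the same rule the largest negative differences were in Tmem59l (-2.80), Otx2 (-2.78 ± 0.12), Kif1a (-2.41), Plcd1 (-2.34), Fut1 (-2.23) and Derl3. Tmem59l, Kif1a and Fut1 rose in both media, with the larger log2 fold changes in 2i/LIF, where their 24 h levels were lower. The 2i/LIF libraries of 24 h held at most 8, 5 and 10 counts of them. Group means of 2i/LIF went from 0.816 to 12.0 CPM (Tmem59l), 0.727 to 31.5 CPM (Kif1a) and 1.11 to 12.5 CPM (Fut1). Those of serum/LIF+2i went from 4.97 to 10.5, 4.80 to 38.6 and 7.34 to 17.6 CPM, so the rise of Kif1a in CPM was not larger in 2i/LIF. Plcd1, a phospholipase C, fell from 18.4 and 20.1 to 4.74 and 5.42 CPM (-1.92 ± 0.16) and rose by 0.42 in 2i/LIF. Klf2 had a difference of 1.36 ± 0.11, since it fell by 1.30 in 2i/LIF, from 84.7 and 78.9 to 33.4 and 32.9 CPM. Lefty1 (1.17 ± 0.11), Stra8 (1.46 ± 0.15), Gbx2 (0.91 ± 0.12) and Hoxa4 (3.80 ± 0.88, at 2.90 CPM or less) also had a more positive step in serum/LIF+2i.

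The step was also set beside the opening of exit in the same cells, from 0 h to 12 h, which shares no library with it. In those 12 h 7309 genes, or 51.2%, were called. The log2 fold changes of the early and late steps had a Pearson correlation of -0.06 over genes. Of 4203 genes called in both, 2483 (59.1%) had opposite directions. Of these, 1375 rose by 12 h and fell after 24 h. They are 38.1% of the genes that rose early and 39.1% of those that fell late. Over all 14288 genes 3611 rose early and 24.6% fell late. The other 1108 fell by 12 h and rose after 24 h. They are 29.96% of the genes that fell early and 29.91% of those that rose late. Over all genes 3698 fell early and 25.9% rose late.

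Among genes called in both steps with at least 10 CPM at 1 of the 4 times, those that rose early and fell late with the largest changes, ranked by the smaller of the 2 steps, included Inhbb, Plxna4, Otx2 and Myo1f. Inhbb was at 2.79 and 1.17 CPM at 0 h, 40.3 and 38.6 at 12 h, 16.8 and 14.2 at 24 h and 0.259 and 0.387 at 40 h. Myo1f, a class I myosin, was at 6.76 and 4.55, 68.0 and 67.2, 65.8 and 58.5, and 6.55 and 8.13 CPM at the 4 times. For Myo1f and Inhbb the last value is thus close to or below the value before exit. By the same rule, those that fell early and rose late were Lad1, Cpeb1, Pglyrp1, Gjb5 and Ap3b2. Cpeb1, a regulator of cytoplasmic polyadenylation, was at 5.73 and 5.58 CPM at 0 h, 1.08 and 0.639 at 12 h, 1.77 and 3.36 at 24 h and 19.6 and 21.3 at 40 h. Lad1, a basement membrane anchor protein, was at 19.98 and 20.6, 0.270 and 0, 0.442 and 0.306, and 5.86 and 5.52 CPM, and Ap3b2 was at 16.7 and 16.2, 3.24 and 1.92, 1.99 and 1.94, and 9.05 and 9.48 CPM. Cpeb1 thus ended above its 0 h level and Lad1 and Ap3b2 below it. At 24 h Pglyrp1 had 1 and 1 counts and Gjb5 3 and 2 counts, so their late rises began at the floor. Pglyrp1 (27.3 and 28.2 CPM at 0 h) and Gjb5 (33.4 and 31.1 CPM at 0 h) were at 0.776 and 0.484 and at 1.47 and 2.13 CPM at 40 h, and the call for Pglyrp1 was lost without either 24 h library or the 40 h library of replicate 1.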

How the data were processed

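The authors deposited a table of raw read counts per gene for 16 libraries of mouse embryonic stem cells, 2 for each of 8 groups. TRIzol RNA went into TruSeq Stranded mRNA libraries, per the labels' protocols. The submitters' processing notes name fastp, STAR, featureCounts and mm10, and versions and the strand setting are not given in the sources used here, so reads of overlapping genes may be shared.

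The counts were fitted with edgeR 4.0.16 in R 4.3.3 (quasi-likelihood F test, robust, two-sided) over all 16 libraries with a term per group, after filterByExpr (minimum count 10, minimum total 15) and TMM scaling. Adjusted p-values are Benjamini-Hochberg over 14288 genes, called under 0.05, and SE is the absolute log2 fold change divided by the square root of F. That SE is approximate and can be too small where counts are low. For Hoxb1 it was 0.28 and 0.63 in the serum/LIF+2i and 2i/LIF steps and 1.18 in their difference. CPM are TMM-scaled. DESeq2 1.42.0, other scalings, filters and leaving out each library were alternatives, and the fit was tested on simulated data. Promoter windows came from RefSeq (GRCm38.p6).

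The members and gene lists were chosen with earlier results of these data known. Genes were named by rules. Named were the 12 largest rises and falls with a mean of at least 10 CPM at one time, more than 3 counts in a library of the lower time and no overlap, the 4 highest each way among genes with at most 3 counts in both libraries of the lower time, and 6 each way by CPM. Also named were up to 4 per list by adjusted p and 2 called against them, 6 each way by difference of the steps with at least 10 CPM in a group, and 5 of each kind that reversed. Predicted, ribosomal RNA and unnamed genes were passed over. All other genes named were chosen after their values were seen. Some genes that met these rules are not reported here.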

Additional observations from a re-analysis of the deposited data

Results flagged for a closer look

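The steps from 24 h to 40 h differed between serum/LIF+2i and 2i/LIF for 1743 genes, by edgeR's test of the difference itself. That is 12.2% of all genes tested, and 297 of them had a difference of at least 1 on the log2 scale. The 212 tested genes named above were in part chosen by this difference or after their values were seen. Their counts are therefore no measure of enrichment. Of the 212, 102 were called, and 35 had a called difference of at least 1 on the log2 scale. These were flagged because the same step differed between media, and no cause was tested.

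The step was more positive in serum/LIF+2i for Pglyrp1 (3.98), Hoxa4 (3.80), Gjb5 (3.24), Zfp352 (3.05), Fzd10 (2.14) and Zscan4c (2.07). The values of Pglyrp1 and Gjb5 rest on few counts. In the 24 h serum/LIF+2i libraries Pglyrp1 had 1 and 1 counts and Gjb5 3 and 2. Levels of Hoxa4 and Zfp352, given above, were also low. It was also more positive for Nt5e (1.94), Hoxb9 (1.92), Hoxa5 (1.91), Cnpy1 (1.85), Wnt8a (1.81), Zscan4d (1.67), Ap3b2 (1.499), Stra8 (1.46), Klf2 (1.36), Dppa3 (1.20), Lefty1 (1.17), Id2 (1.08) and Dazl (1.02).

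The step was more negative in serum/LIF+2i for Tmem59l (-2.80), Otx2 (-2.78), Kif1a (-2.41), Plcd1 (-2.34), Fut1 (-2.23) and Derl3 (-2.01). It was also more negative for Herpud1 (-1.61), Fgf5 (-1.60), Atf3 (-1.46), Vldlr (-1.45), Smyd1 (-1.44), Chac1 (-1.40), Ddit3 (-1.31), Ddit4 (-1.24), Nupr1 (-1.23) and Phlda1 (-1.06). The values of Tmem59l, Kif1a and Fut1 rest on few counts in the 2i/LIF libraries of 24 h, given above.

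The call of the difference depended on the processing for 7 of these genes. It held under 9 of 16 alternatives for Hoxb9 and Zfp352, 9 of 17 for Id2 and Phlda1, 11 of 16 for Hoxa5, 14 of 17 for Pglyrp1 and 16 of 17 for Ap3b2. It was lost with DESeq2 for each of them but Ap3b2, whose call was lost without the 2i/LIF library of 24 h replicate 1, and for all 7 without 1 or more single libraries.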

How the results depend on the processing

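With DESeq2 the difference of the steps was called for 740 genes against 1743, and at an adjusted p under 0.01 for 1031. Requiring an absolute log2 fold change of at least 1 left 1834 genes in the serum/LIF+2i step, 1861 in the 2i/LIF step, 297 in their difference and 2128 in the first 12 h. The correlation of the 2 steps was 0.390 with no filter on low counts and 0.839 at a mean of at least 5 CPM. Leaving out 1 library gave 5951 to 6159 genes in the serum/LIF+2i step, 5359 to 5667 in the 2i/LIF step, 1246 to 1433 in the difference, 6228 to 6442 in the first 12 h, and a correlation of 0.711 to 0.738. A lone library is then assumed to vary like the other groups. With library size only, 4285 genes were called higher and 2994 lower in the serum/LIF+2i step, and 3668 and 2962 in the 2i/LIF step.

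The replicate numbers did not pair the libraries (correlation of same-numbered deviations at 24 h and 40 h -0.009), and the replicate block gave 7219, 6682, 1763 and 7314 genes in these comparisons. Leaving out ribosomal RNA genes and Lars2, a choice made after seeing the data, gave 7243 genes in the serum/LIF+2i step. Of 2713 values of named genes under the alternatives, 2663 kept their call and direction, 48 lost the call, 2 gained it (both for Trib3) and 0 reversed. In the unfolded protein response list 17 genes were called lower under each other tool, scaling, filter, design and left-out library run, and 3 with a log2 fold change of at least 1. The medians of short or low lists moved with the filter, that of the primitive streak list from -0.10 to 0.78 with no filter. The cause was not tested.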
